A study of Rattus norvegicus with 63 samples.

Results

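Kidney gene expression 18 h after an injection of methylprednisolone was compared with kidney of untreated rats on expression arrays, on which several short probes against one transcript form a probe set. The comparison takes the 3 arrays of the main type labelled 18 h and the 4 labelled 0 h, which are 7 of the 53 arrays of that type and of 63 in the series. The arrays were taken by their labels, and the comparison itself was chosen with earlier results of these data known. Control probe sets and dim ones were left out of the tests, which covered 9520 of the 15866 others. At 18 h the rats had received methylprednisolone, a synthetic glucocorticoid, and at 0 h they had received no treatment; both groups are total RNA of Rattus norvegicus kidney. The labels give no dose, route, strain, sex, age or surgery and no hour of the day, and they do not say whether numbered libraries are separate animals, so the p-values below rest on the spread among libraries, which may be technical. Untreated rats exist at 0 h alone, so the drug, the injection, the elapsed time and the hour of day cannot be told apart. The other groups (3 libraries each) also followed methylprednisolone, and the labels do not say whether the dose was the same. Of these, 12 h and 48 with 72 h serve as further references. Means of 0.25, 0.5, 0.75, 4, 6, 8 and 30 h are quoted to place a gene in time.

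Methylprednisolone enters cells and binds the glucocorticoid receptor, which then acts as a transcription factor, and many of its direct targets rise within hours and fall again as the drug is cleared. Kidney is rich in this receptor, and its proximal tubule reabsorbs most of the filtered solutes, makes glucose and breaks down amino acids. Liver and kidney tubules also hold the enzymes of the methionine cycle. There S-adenosylmethionine gives up its methyl group (Gnmt is one of the enzymes that use it), the product S-adenosylhomocysteine is split into homocysteine and adenosine (Ahcy), and homocysteine is turned back into methionine with a methyl group from betaine (Bhmt).

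Values called signals are deposited intensities scaled per array, and every signal mean is given ± SD, with n = 4 at 0 h and n = 3 at each later time quoted. Differences are 18 h minus the compared group on the scale log2(signal + 7.63), with the standard error, and p-values are from limma adjusted over all 9520 probe sets tested by the Benjamini-Hochberg method, with a call at an adjusted p under 0.05. The 7 arrays were alike in brightness, with medians between 74.5 and 81.4. Correlations between libraries ran from 0.954 to 0.974 within a group and from 0.95 to 0.973 between the groups, taken over probe sets (which do not count as replicates). The ratio of the 3′ to the 5′ control probe set of beta-actin, which rises as RNA breaks down, was 2.76 in 18 h replicate 3, the 6 remaining libraries having 1.21 to 1.71. For Gapdh it was 1.31 there, beside 1.05 to 1.27. The part of this in any result was not tested. Values without that library are given for the named genes whose call against 0 h it changes.

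At 18 h few transcripts passed the test against untreated kidney. Of the 9520 probe sets tested, 12 were higher (0.126%) and 6 lower (0.063%). The counts rested on single libraries: 3 were higher without 18 h replicate 1, and 1 was lower without 18 h replicate 2. An unadjusted p under 0.05 was reached by 418 (4.39%), fewer than the 476 that a share of 0.05 would give. All 3 libraries at 18 h lay above all 4 at 0 h for 319 probe sets (3.35%) and below them for 372 (3.91%). The median difference over all probe sets was -0.0014. Of the 18 called probe sets, 16 carry 1 gene symbol, 11 higher and 5 lower, and for every one of these the groups did not overlap. The increases included the enzymes Sult1a1, Gnmt, Bhmt, Ahcy and Arg2, beside Apoh, Ddit4l, Eif4ebp3, Pigr, Enpp5 and Tmem37. The decreases were those of Rgn, Aadac, Kmo, Fhit and Ptprd. Without 18 h replicate 3 the calls of Eif4ebp3 (adjusted p = 0.206, limma), Arg2 (0.205), Ptprd (0.185), Enpp5 (0.157) and Aadac (0.126) were lost. Those of Gnmt, Bhmt, Apoh and Ahcy were lost too, with values given below.

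**Figure D1:**
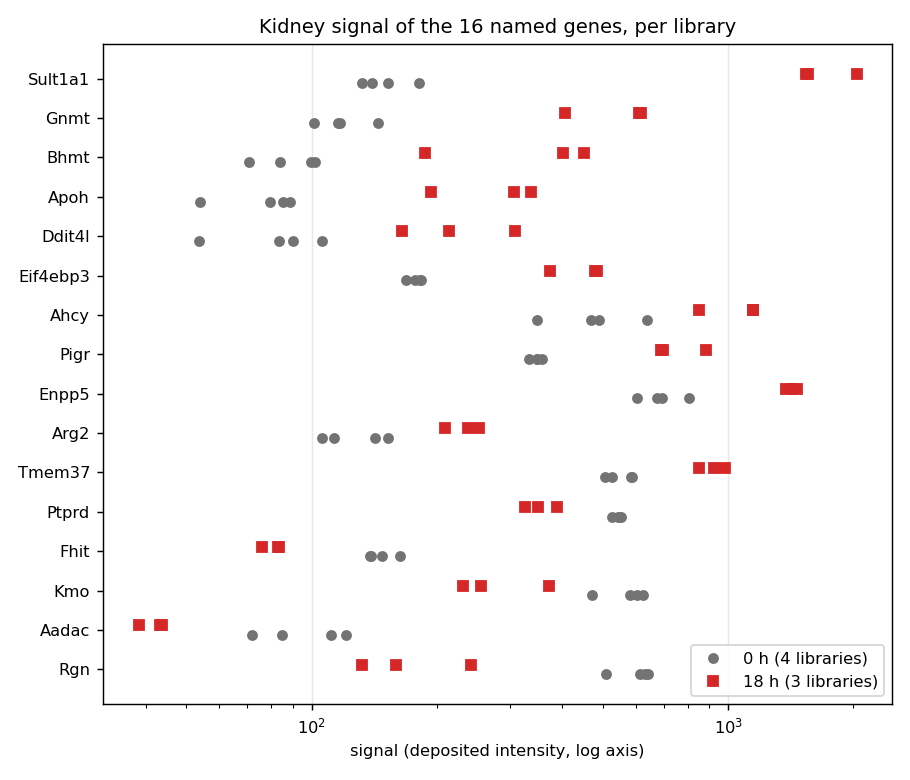
Signal of each of the 16 called genes in every library on a log axis, with the 4 libraries at 0 h as grey circles and the 3 at 18 h as red squares. For no gene do both groups overlap; Sult1a1 has the widest gap, from at most 181 at 0 h to at least 1536 at 18 h.

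Sult1a1, a phenol sulfotransferase that makes drugs, catechols and hormones more soluble, had the largest increase of the comparison. Its signals were 152, 140.0, 132 and 181 in the 4 libraries at 0 h and 1554, 1536 and 2034 in the 3 at 18 h. Every 18 h library thus stood far above every untreated one. The difference was 3.43 ± 0.34, a 10.8-fold change with a 95% interval of 2.74 to 4.11 on the log2 scale (adjusted p = 1.1e-08). The call held without any single library of the 7 and in all 10 other settings tried. The gene was already high by 4 h (1454 ± 378) and remained so at 12 h (1662 ± 733). The mean of the 30 h libraries, 141 ± 31.0, was close to that of untreated kidney (151 ± 21.4). Between 12 and 18 h the difference was 0.13 ± 0.36, with an interval of -0.60 to 0.86.

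Other conjugation enzymes were less clear. In the list of sulfotransferases, glutathione transferases and glucuronosyltransferases, 1 of 17 measured members rose, Sult1a1, and none fell, where over all 7106 genes tested 11 (0.155%) were higher and 5 (0.0704%) lower. The list's median difference was 0.11 against 0.0059 over the brightest probe set of all genes. Both glutathione transferases of the mu class that lay apart from 0 h missed the threshold. Gstm1 had signals of 267, 156 and 179.8 at 18 h against 50.4, 40.6, 18.6 and 25.6 at 0 h (difference 2.37 ± 0.58, adjusted p = 0.0688). All its untreated signals were below 52.3, the level of the filter on dim probe sets, so Gstm1 passed that filter through later times. Gstm2 had 848, 370.2 and 447 against 154, 168, 193 and 205 (2.83-fold higher, adjusted p = 0.0533). In neither gene did the groups overlap, and 18 h replicate 1 was the highest library of both. Probes of this family may bind more than 1 of its members, which these files do not settle.

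Among the called genes were 3 enzymes around the methionine cycle, grouped here after their calls were known and not from a list. Gnmt, glycine N-methyltransferase, which disposes of surplus methyl groups, had signals of 117, 144, 101 and 116 at 0 h and 611, 407 and 619 at 18 h. The difference was 2.11 ± 0.40, a 4.31-fold change (adjusted p = 0.00929). Its rise was under way by 4 h (328 ± 121). The 12 h mean was 619 ± 423, and the 30 h mean, 117 ± 11.6, was close to the untreated 119.5 ± 17.8.

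Bhmt, betaine-homocysteine methyltransferase, had signals of 83.8, 99.7, 70.8 and 102 at 0 h and 401, 187 and 452 at 18 h. The lowest 18 h library, replicate 2, was still above the highest untreated one, and replicates 1 and 3 were far above replicate 2. The difference was 1.79 ± 0.36, a 3.47-fold change (adjusted p = 0.0133). Its mean was still 68.1 ± 8.12 at 4 h and then 219 ± 131 (8 h), 222 ± 155 (12 h, with single libraries from 104 to 397) and 347 ± 140.3 (18 h, the highest of all times). By 30 h it was 81.3 ± 21.9. The step from 12 to 18 h, 0.74 ± 0.38, did not pass (adjusted p = 0.998).

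Ahcy, adenosylhomocysteinase, which removes the product that inhibits methyl transfers, had signals of 348, 640.1, 468 and 489 at 0 h and 1145, 851 and 1148 at 18 h. The groups lay closer here, with 0 h replicate 2 at 640.1 and 18 h replicate 2 at 851. The difference was 1.11 ± 0.26, a 2.16-fold change (adjusted p = 0.0491). The calls of these enzymes were lost in several fits with 1 library left out. Gnmt lost its call without 18 h replicate 1 or 18 h replicate 3 (adjusted p up to 0.0791). Bhmt lost its call without 0 h replicate 3, 18 h replicate 1 or 18 h replicate 3 (up to 0.181, without 18 h replicate 3). Ahcy lost its call without any 1 of 6 libraries (up to 0.28, without 18 h replicate 3) and kept it without 0 h replicate 2. Ahcy also lost it in 5 of 10 other settings, with adjusted p between 0.0538 (0 h and 18 h alone) and 0.106 (replicate block). With 1 library left out the differences ran from 2.00 to 2.30 (Gnmt), 1.56 to 2.18 (Bhmt) and 0.97 to 1.26 (Ahcy).

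Other enzymes of that cycle and its neighbours did not pass. They too were picked after the values had been seen and are given as a description. Mat2a, which makes S-adenosylmethionine, differed by -0.16 ± 0.16 and its partner Mat2b by -0.22 ± 0.18. Cbs and Cth, which lead homocysteine into cysteine, differed by -0.12 ± 0.19 and -0.24 ± 0.32. Gamt, a methyltransferase of creatine synthesis, had signals of 720.0 to 801 at 18 h against 461 to 685 at 0 h (difference 0.37 ± 0.20, adjusted p = 0.999). Sardh and Dmgdh, which oxidise the methylated glycines made by Gnmt and left by Bhmt, differed by 0.17 ± 0.21 and -0.17 ± 0.19.

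The promoters of Sult1a1 and of the 3 methionine cycle genes are shown because each rose at 18 h; they were chosen after the values had been seen. Each is the 250 bases before the RefSeq gene start (assembly GRCr8), printed in the gene's direction. Capitals mark matches, on either strand, to 4 motifs: the E-box CACGTG and the D-box TTANGTAA of clock factors, the element TAGGTCA of the ROR and REV-ERB receptors, and ACANNNTGT, the core of the glucocorticoid receptor element. The search ran from 250 bases before to 50 after the start, over which 6.42%, 2.24%, 2.63% and 6.86% of all 33469 listed promoters hold the motif.

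Sult1a1 (chr1:190706113-190706362, minus strand): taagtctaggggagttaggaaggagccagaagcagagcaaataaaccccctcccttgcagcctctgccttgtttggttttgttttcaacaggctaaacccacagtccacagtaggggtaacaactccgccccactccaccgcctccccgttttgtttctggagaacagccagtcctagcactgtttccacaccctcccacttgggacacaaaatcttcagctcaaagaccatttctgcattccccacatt

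Gnmt (chr9:21752032-21752281, plus strand): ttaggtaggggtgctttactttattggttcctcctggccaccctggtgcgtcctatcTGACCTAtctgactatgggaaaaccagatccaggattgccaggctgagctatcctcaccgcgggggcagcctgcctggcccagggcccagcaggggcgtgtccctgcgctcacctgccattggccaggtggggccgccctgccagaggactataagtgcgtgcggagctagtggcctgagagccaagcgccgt

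Bhmt (chr2:26614430-26614679, minus strand): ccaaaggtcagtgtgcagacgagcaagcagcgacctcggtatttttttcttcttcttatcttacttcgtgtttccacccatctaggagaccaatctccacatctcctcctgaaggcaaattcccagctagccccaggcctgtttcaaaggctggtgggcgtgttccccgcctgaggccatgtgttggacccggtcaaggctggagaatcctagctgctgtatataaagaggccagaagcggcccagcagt

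Ahcy (chr3:164044563-164044812, minus strand): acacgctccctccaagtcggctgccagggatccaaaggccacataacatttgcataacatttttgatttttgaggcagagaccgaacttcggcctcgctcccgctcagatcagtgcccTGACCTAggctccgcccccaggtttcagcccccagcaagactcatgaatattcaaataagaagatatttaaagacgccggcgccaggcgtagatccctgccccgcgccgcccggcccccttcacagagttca

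Both Gnmt and Ahcy hold the ROR element, beginning 193 and 132 bases before the start. Gnmt also holds the receptor element core, at base 12 after the start and so beyond the printed stretch. In Sult1a1 and Bhmt none of the 4 motifs was found in this window. Of the 16 called genes, 15 had a listed promoter and 4 of these held any of the motifs; the other 2 are Pigr (an E-box and the receptor element core) and Aadac (a D-box). A match is a description of letters and not a binding site.

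**Figure D2:**
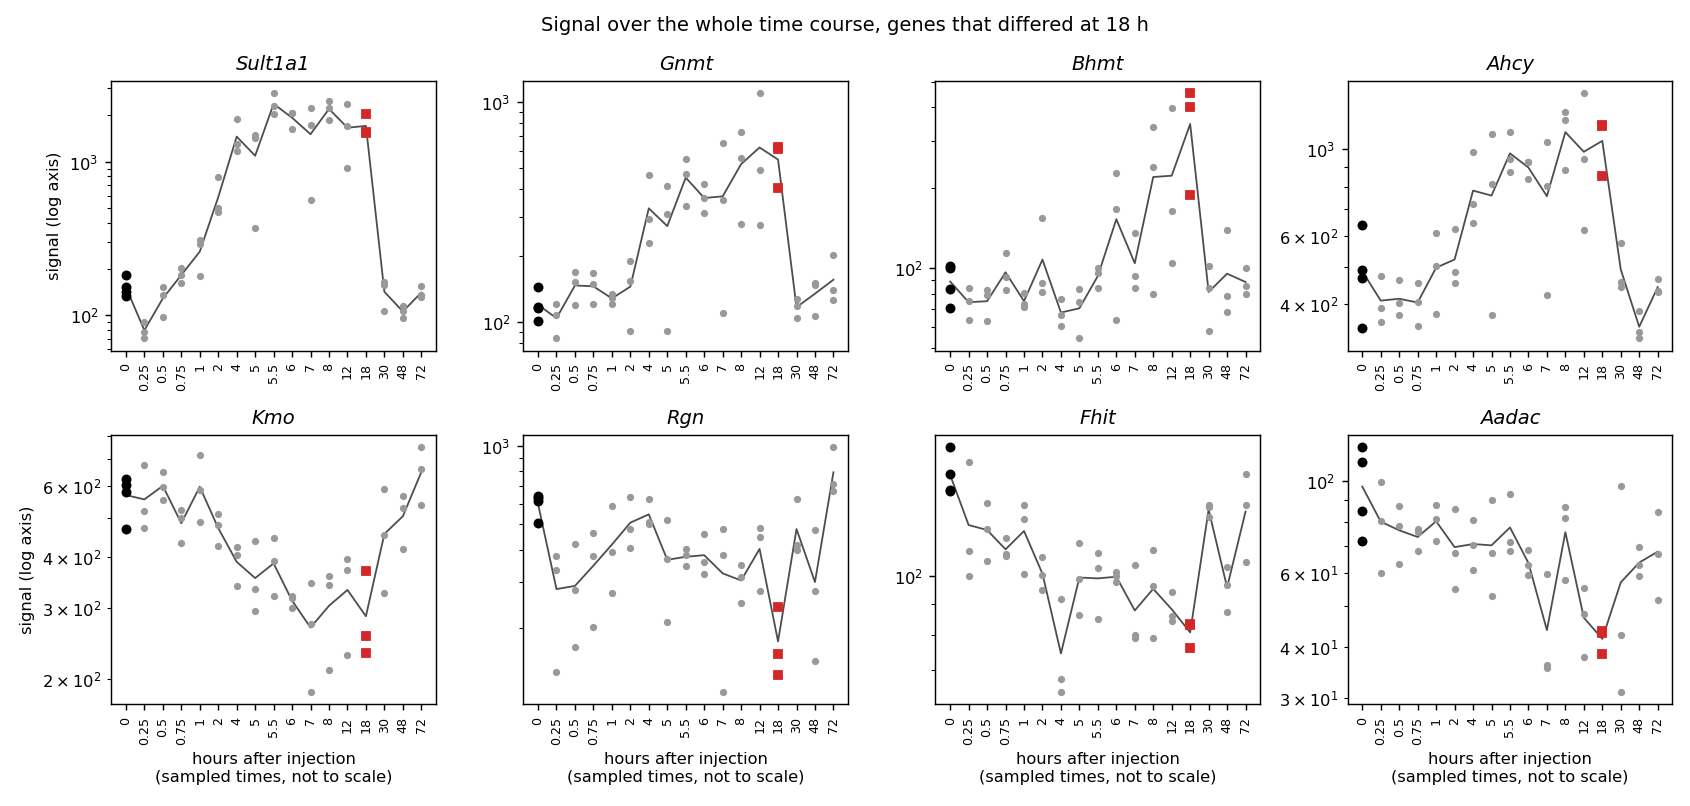
Signal of 4 genes that rose at 18 h (top) and 4 that fell (bottom) at every sampled time on a log axis, each point a library, black at 0 h and red at 18 h, with the line through the means; times are evenly spaced and not to scale. For Sult1a1, Gnmt, Bhmt and Ahcy all 18 h libraries lie above all untreated ones and the 30 h means are near the untreated level; at 12 h replicate 2 of Ahcy (618) lies within the untreated range and that of Bhmt (104) just above it.

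In the list of amino acid breakdown, of 27 measured members 2 rose (Bhmt and Ahcy, above) and 1 fell (Kmo), beside 0.155% and 0.0704% of all genes, and the list's median difference was 0.013. Kmo, kynurenine 3-monooxygenase of tryptophan breakdown, had signals of 605, 581, 626 and 471 at 0 h and 231, 255 and 371 at 18 h. It fell by 1.00 ± 0.21, a 2-fold change (adjusted p = 0.0198), with 18 h replicate 3 closest to the untreated libraries. Kynu, the kynureninase of that pathway, was at 273, 296 and 398 against 526, 445, 465 and 460.2 without overlap, but missed the threshold (difference -0.56 ± 0.21, adjusted p = 0.788), and Haao differed by -0.087 ± 0.20. Prodh, the first enzyme of proline breakdown, had 205, 195 and 304 against 58.5, 71.9, 62.2 and 61.4, which also missed it (difference 1.75 ± 0.42, adjusted p = 0.0688). Prodh was highest at 8 h, with a mean of 435 ± 207.

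Arg2, the mitochondrial arginase that makes ornithine and urea from arginine, had signals of 153, 142, 106 and 113 at 0 h and 209.5, 252 and 237 at 18 h. It rose by 0.83 ± 0.19, a 1.78-fold change (adjusted p = 0.043). Enzymes that use ornithine did not pass: Odc1, the first step of polyamine synthesis, differed by 0.61 ± 0.30 (adjusted p = 0.999) and Oat by 0.006 ± 0.23. Arg2 lost its call when any of 6 libraries was left out (up to 0.273; it held without 0 h replicate 1), and Kmo when any of 5 was (up to 0.196, without 18 h replicate 1; it held without 0 h replicate 4 or 18 h replicate 3). In a fit of 0 h and 18 h alone Kmo had 0.0538 and Arg2 0.0728, and Arg2 was lost in 4 of 10 other settings (up to 0.141, with the replicate block).

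Genes for inhibitors of growth and translation were among the increases. Ddit4l (also called REDD2) encodes an inhibitor of the growth kinase complex mTORC1, and Eif4ebp3 a protein that binds the cap-binding factor eIF4E and holds back translation. Ddit4l had signals of 106, 53.6, 90.2 and 83.7 at 0 h and 309, 165 and 214 at 18 h, with the lowest 18 h library, replicate 2, above the highest untreated one. It rose by 1.37 ± 0.25, a 2.58-fold change (adjusted p = 0.00538). Its highest mean was that of 18 h, 229 ± 73.3, but its course was uneven. The mean was 154 ± 49.3 at 0.25 h, above the untreated 83.4 ± 22.0, and 48.2 ± 5.9 at 4 h. Later means were 138 ± 44.5 (12 h), 65.5 ± 30.6 (30 h) and 122 ± 23.8 (72 h). Its better known relative Ddit4, an early glucocorticoid target, had 72.2, 48.2 and 69.5 at 18 h against 61.6, 77.7, 49.3 and 90.6 at 0 h (difference -0.11 ± 0.42), after 1254 ± 356 at 4 h.

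Eif4ebp3 had signals of 168, 183, 182 and 177 at 0 h, within a narrow range, and 374, 484 and 479 at 18 h. It rose by 1.28 ± 0.29, a 2.43-fold change (adjusted p = 0.0403). Its highest mean was earlier, 1475 ± 497 (6 h), followed by 596 ± 336 (12 h) and 445 ± 62.3 (18 h). The family members Eif4ebp1 and Eif4ebp2 differed by -0.17 ± 0.17 and 0.056 ± 0.35 and did not pass. Eif4ebp3 lost its call whichever of the 7 libraries was left out (up to 0.228, without 18 h replicate 2), and Ddit4l without 18 h replicate 1 (0.106) and in a fit of 0 h and 18 h alone (0.061). Eif4ebp3 was also lost without a filter (0.0648) and with the replicate block (0.0961).

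The remaining increases were in genes for secreted and membrane proteins. Apoh, a phospholipid-binding plasma protein made chiefly by liver, had signals of 85.3, 79.4, 88.6 and 54.0 at 0 h and 193, 307 and 337 at 18 h, and rose by 1.75 ± 0.32, a 3.35-fold change (adjusted p = 0.00538). Pigr, the receptor that carries dimeric IgA across epithelia, had 347, 357, 348 and 333 at 0 h and 886, 699 and 691 at 18 h, and rose by 1.11 ± 0.22, a 2.15-fold change (adjusted p = 0.0129). The 4 untreated libraries of Pigr lay within a few percent of each other, and its highest mean was that of 18 h, 759 ± 110.1, beside 639 ± 122 (12 h), 502 ± 118 (30 h) and 575 ± 103 (0.5 h).

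Enpp5, a membrane protein of the nucleotide pyrophosphatase family, had 808, 605, 695 and 676 at 0 h and 1423, 1466 and 1379 at 18 h, and rose by 1.03 ± 0.23 (adjusted p = 0.0405). Tmem37, a relative of the gamma subunits of calcium channels, had 525, 507, 583 and 587 at 0 h and 986, 927 and 849.9 at 18 h, and rose by 0.73 ± 0.15 (adjusted p = 0.015). These were changes of 2.04-fold and 1.66-fold with little spread in either group. Enpp5 lost its call whichever of the 7 libraries was left out (up to 0.205, without 18 h replicate 2), Tmem37 without 0 h replicate 1, 0 h replicate 2, 18 h replicate 1 or 18 h replicate 2 (up to 0.109), Apoh without 18 h replicate 2 or 18 h replicate 3 (up to 0.0683) and Pigr without 18 h replicate 1 (0.114). Enpp5 was also lost in 4 of 10 other settings (up to 0.11, with the replicate block).

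Because Apoh, Bhmt and Gnmt are abundant in liver, the hepatocyte markers were read library by library. Of 10 markers 9 were on the array and 4 passed the filter on dim probe sets, of which 1 rose, Apoh. The albumin gene Alb, under that filter, had signals of 22.3, 50.7 and 28.6 at 18 h and 51.0, 29.5, 38.1 and 30.2 at 0 h, overlapping throughout. Apoa1 ranged over 3.44 to 9.34 at 18 h and 4.75 to 18.1 at 0 h, and Ttr differed by 0.29 ± 0.34 (adjusted p = 0.999). The summed signal of the 8 markers other than Apoh was 299 to 485 at 18 h and 328 to 429 at 0 h, which overlap; with Apoh it was 492 to 792 and 399 to 514.

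Among the decreases Rgn, regucalcin, a calcium-binding protein with gluconolactonase activity, was the largest. Its signals were 613, 632, 508 and 643 at 0 h and 132, 159 and 242 at 18 h, so that every 18 h library was far below the lowest untreated one. It fell by 1.75 ± 0.38, a 3.36-fold change (adjusted p = 0.0288). Its course was uneven. The mean was already 282 ± 129 at 0.25 h, 290.3 ± 127 at 0.5 h and 347 ± 133 at 0.75 h, below the 4 untreated libraries, and then 546 ± 69.2 by 4 h. Later means were 403 ± 109.7 (12 h), 479.8 ± 126 (30 h), 300.4 ± 163 (48 h) and 792 ± 172 (72 h). Aadac, an esterase of drug and lipid metabolism, had 84.8, 121, 111 and 71.9 at 0 h and 38.4, 43.7 and 43.1 at 18 h, and fell by 1.06 ± 0.23 (adjusted p = 0.0288). The untreated mean of Aadac, 97.1 ± 22.7, was the highest of all times. Later means included 80.0 ± 19.7 (0.25 h), 46.9 ± 8.79 (12 h) and 67.7 ± 16.3 (72 h).

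Fhit, a hydrolase of diadenosine triphosphate known as a tumour suppressor, had 147, 163, 139 and 138 at 0 h and 83.3, 82.9 and 75.9 at 18 h, and fell by 0.80 ± 0.14 (adjusted p = 0.00268). It was already low at 4 h (74.5 ± 14.9) and at 30 h its mean lay between both groups (129 ± 3.19). The mean was 121 ± 28.8 at 0.25 h and 95.8 ± 8.20 at 48 h. Every mean after 0 h was below the lowest untreated library, so the untreated mean was the highest of all times. Ptprd, a receptor tyrosine phosphatase, had 544, 549, 554 and 526 at 0 h and 388, 324 and 349.7 at 18 h, and fell by 0.61 ± 0.14 (adjusted p = 0.0405). Its other probe set pointed the same way without passing (-0.83 ± 0.29, adjusted p = 0.581). The call of Fhit held without any single library (adjusted p up to 0.0407) but not in a fit of 0 h and 18 h alone (0.0518). Ptprd lost its call whichever of the 7 libraries was left out (up to 0.289), Rgn in 6 of 7 cases (up to 0.212; it held without 18 h replicate 3) and Aadac in 5 of 7 (up to 0.154; it held without 0 h replicate 1 or 4). In a fit of 0 h and 18 h alone Aadac had 0.0803 and Ptprd 0.0673; Ptprd was lost in 6 of 10 other settings (up to 0.135), Rgn in 3 of 10 (up to 0.0867, with the replicate block) and Aadac in 3 of 9 (up to 0.0803).

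The 2 called probe sets without a single symbol completed the set. One with none listed, 1372911_at, had signals of 136, 172, 193 and 377 at 0 h and 991, 641 and 577 at 18 h, and rose by 1.77 ± 0.30 (adjusted p = 0.00268). Its means at 4 h (58.2 ± 12.8) and 8 h (86.8 ± 11.4) were below the untreated 219.6 ± 108, and that of 12 h (532 ± 199.8) was above it. The other, 1389408_at, with several symbols, had 110.0, 53.7, 59.9 and 125 at 0 h and 41.1, 19.1 and 15.3 at 18 h, and fell by 1.53 ± 0.34 (adjusted p = 0.0403).

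A second reference was used that leaves out the 0 h libraries: 48 and 72 h, whole days after 0 h. Against the mean of these times 18 probe sets were higher (0.189%) and 15 lower (0.158%), with 642 below 0.05 before adjustment. Without 18 h replicate 3, the library with the high beta-actin ratio, these counts were 6 and 4. Of the 28 called probe sets with 1 symbol, 21 lost the call without it, and 7 kept it: those of Sult1a1, Ahcy, Arg2, Tmem37, Kmo, Tspo and Ctsb. Only Sult1a1, Ahcy and Arg2 kept the call whichever of the 9 libraries was left out. Both comparisons share the 3 libraries at 18 h. Of the 11 genes that rose against 0 h, all but Pigr passed here too; Sult1a1 was higher by 3.73 ± 0.31, Gnmt by 1.86 ± 0.37, Bhmt by 1.77 ± 0.33 and Ahcy by 1.38 ± 0.24 (adjusted p = 0.00197), while Pigr had 0.72 ± 0.20 (adjusted p = 0.145). Of the 5 that fell, Kmo passed, lower by 1.00 ± 0.19 (adjusted p = 0.00604). Rgn had -1.38 ± 0.35 (adjusted p = 0.0736), Ptprd -0.47 ± 0.13, Fhit -0.41 ± 0.13 and Aadac -0.56 ± 0.21 (adjusted p = 0.525).

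Against the time sampled before it, 12 h, no probe set passed at 18 h (0% of those tested; limma, 268 at an unadjusted p under 0.05, smallest adjusted p 0.998). None passed in any of the 10 other settings or without any single library either. The differences of the called genes between 12 and 18 h ran from -1.15 ± 0.40 for Rgn to 0.74 ± 0.38 for Bhmt. For Rgn the 95% interval (-1.96 to -0.34) also held the size of its difference from 0 h. For the other 15 genes it did not, as with Sult1a1 (-0.60 to 0.86), Gnmt (-0.86 to 0.89) and Ddit4l (0.15 to 1.24).

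**Figure D3:**
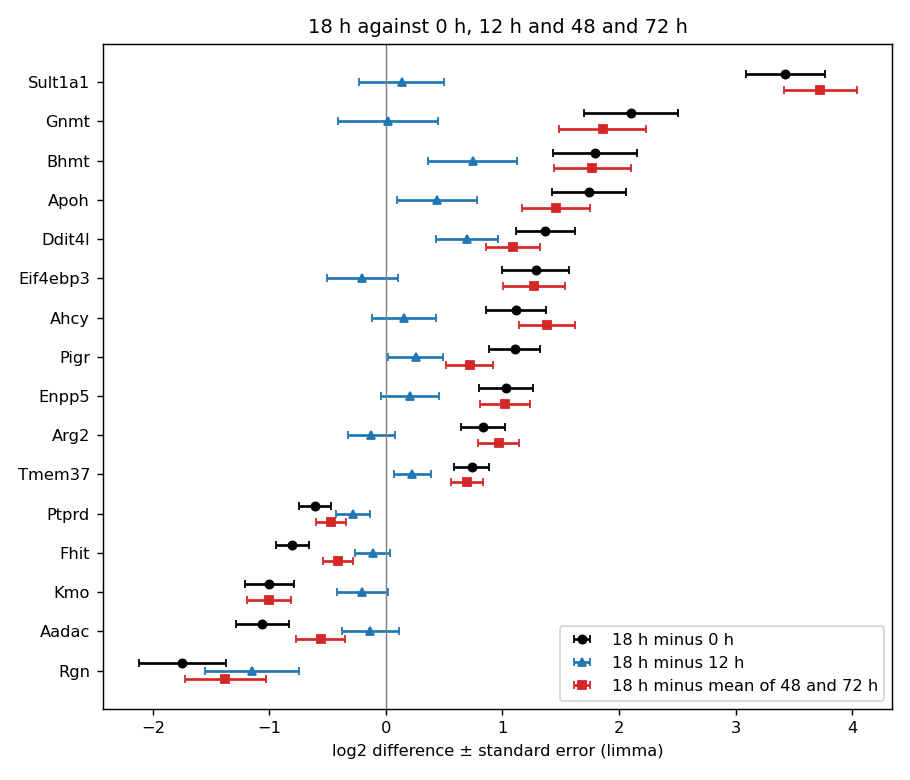
Log2 difference of the 16 called genes at 18 h from 0 h (black circles), from 12 h (blue triangles) and from the mean of 48 and 72 h (red squares), each with its standard error from limma. Differences from 12 h lie nearer to 0 than those from 0 h for each gene shown, and for Sult1a1 and Gnmt both other references give differences within 1 standard error of each other.

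Some genes passed against 48 and 72 h and not against 0 h, most of them not without 18 h replicate 3. Higher at 18 h were Prodh (2.13 ± 0.39), Gstm2 (1.41 ± 0.32), the alcohol dehydrogenase Adh1c (1.47 ± 0.35, with signals of 3115, 2305 and 3266 against 1133, 970.2, 712 and 1023 at 0 h), the mitochondrial cholesterol carrier Tspo (0.74 ± 0.16) and 1 of 2 probe sets of the glutamate dehydrogenase Glud1 (0.61 ± 0.14; the other 0.48, adjusted p = 0.293). Lower were the cytokine Il33 (-0.97 ± 0.21), the retinol transporter Stra6 (-0.95 ± 0.21), the metallothionein Mt2A (-0.85 ± 0.17), the brush border peptidase Anpep (-0.71 ± 0.15), the lysosomal protease Ctsb (-0.65 ± 0.12), the chaperone Calr (-0.64 ± 0.15) and Utp4 (-0.62 ± 0.14). For Ctsb, Stra6, Mt2A and Calr the 18 h libraries overlapped those at 0 h, and Ctsb differed from 0 h by only -0.16 ± 0.13, its mean at 72 h being 4108 ± 315 against 2661 ± 281 at 0 h. The other 4 tested probe sets of Il33 and Stra6 did not pass (adjusted p from 0.117 to 0.963). Without 18 h replicate 3 the adjusted p was 0.0891 for Prodh, Gstm2, Il33, Mt2A and Utp4, 0.0675 for Anpep, 0.264 for Adh1c, 0.333 for Stra6, 0.42 for Calr and 0.463 for Glud1, while Tspo (0.0322) and Ctsb (0.0242) still passed; without 18 h replicate 1 Tspo (0.195) and Ctsb (0.0714) did not.

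No clock gene passed against untreated kidney, though several lay wholly below it. The circadian clock is a loop in which Bmal1 and Clock drive their own repressors (Per, Cry and the REV-ERB receptors, of which Nr1d2 encodes one) and output factors such as Dbp and Hlf. Of the 14 measured members, 6 had all 3 libraries at 18 h below all 4 at 0 h and 1 above. This held for 3.91% and 3.35% of all probe sets tested, and for 265 and 254 of 7106 genes on the brightest probe set. The list's median difference was -0.31. Such separation was not particular to the clock list. Of 16 proximal tubule markers 2 lay below and 5 above, and of 12 organic ion and peptide transporters 3 and 1. Dbp had signals of 87.6, 16.8 and 60.6 at 18 h and 143, 236, 200.1 and 153 at 0 h, with replicate 2 of 18 h the lowest (difference -1.79 ± 0.51, adjusted p = 0.216). Hlf had 61.2, 116 and 85.1 against 222, 211, 202 and 156 (difference -1.14 ± 0.38, adjusted p = 0.494), and Usp2, a deubiquitinase under clock control, 52.1, 57.5 and 66.0 against 129, 159, 120.1 and 130.1 (difference -1.10 ± 0.42, adjusted p = 0.877).

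Nr1d2 was nearest to the threshold, with signals of 111, 89.2 and 86.9 at 18 h and 197, 237, 223 and 163 at 0 h on one probe set (difference -1.03 ± 0.24, adjusted p = 0.0502). On a brighter one, which stands for the gene in the list, the difference was -1.07 ± 0.25 (adjusted p = 0.0572). Cry2 had 125, 76.0 and 68.1 against 127, 149, 149.6 and 134 (difference -0.64 ± 0.18, adjusted p = 0.216) and Per2 121, 149 and 159 against 205, 260.1, 214 and 179.6 (difference -0.56 ± 0.25). At 4 h the libraries of Usp2 (727, 700.5 and 820) and Per2 (290, 301 and 276) lay above all untreated ones. Those of Dbp (51.6, 82.6 and 76.5) lay below them, and those of Nr1d2 and Cry2 overlapped them. Bmal1, which peaks opposite to Dbp in the known cycle, had 77.7, 162 and 126 against 84.0, 62.1, 68.4 and 105, with 18 h replicate 1 inside the untreated range (difference 0.54 ± 0.21, adjusted p = 0.954). In 18 h replicate 1, Dbp was the highest of the group and Bmal1 the lowest.

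Against 48 and 72 h 3 of the 14 clock genes passed, 1 higher and 2 lower, beside 0.225% and 0.141% of all genes. Dbp was lower by 2.13 ± 0.47 (adjusted p = 0.0199), Nr1d2 by 0.99 ± 0.22 on its dimmer tested probe set (adjusted p = 0.0212) and Bmal1 was higher by 0.89 ± 0.19 (adjusted p = 0.0199). All 3 lost the call without 18 h replicate 2 (adjusted p of 0.417 for Dbp, 0.155 for Nr1d2 and 0.382 for Bmal1) and without 18 h replicate 3 (0.0891, 0.178 and 0.158). The brighter probe set of Nr1d2, which stands for the gene in the list, was also called against 48 and 72 h (limma, adjusted p = 0.0173). It lost the call without 18 h replicate 2 (0.448) and without 18 h replicate 3 (0.0891). Over 12, 18, 30, 48 and 72 h the mean of Dbp went through 75.0 ± 44.5, 55.0 ± 35.7, 294 ± 50.1, 296 ± 72.6 and 191 ± 80.0, and that of Bmal1 through 121 ± 18.6, 122 ± 42.2, 51.5 ± 7.21, 49.3 ± 7.33 and 72.1 ± 7.99. At 72 h both were near the untreated means (183 ± 43.1 and 79.9 ± 19.1), and at 48 h Dbp was above and Bmal1 below them. The times 48 and 72 h fall on the same hour of day as 0 h if all rats were injected at one hour, which the labels do not say, while 18 h does not; drug and hour cannot be told apart in this design. The promoter of Bmal1 is shown because its ROR element, through which the REV-ERB receptors are known to repress it, lies in the window; none of the 4 motifs was found in those of Dbp and Nr1d2.

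Bmal1 (chr1:176766078-176766327, plus strand): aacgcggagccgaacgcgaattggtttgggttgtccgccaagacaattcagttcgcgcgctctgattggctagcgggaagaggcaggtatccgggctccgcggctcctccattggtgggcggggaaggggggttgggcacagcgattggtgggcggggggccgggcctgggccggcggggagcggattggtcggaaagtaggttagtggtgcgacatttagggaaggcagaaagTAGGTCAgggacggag

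The capitals mark TAGGTCA, which begins 16 bases before the start.

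**Figure D4:**
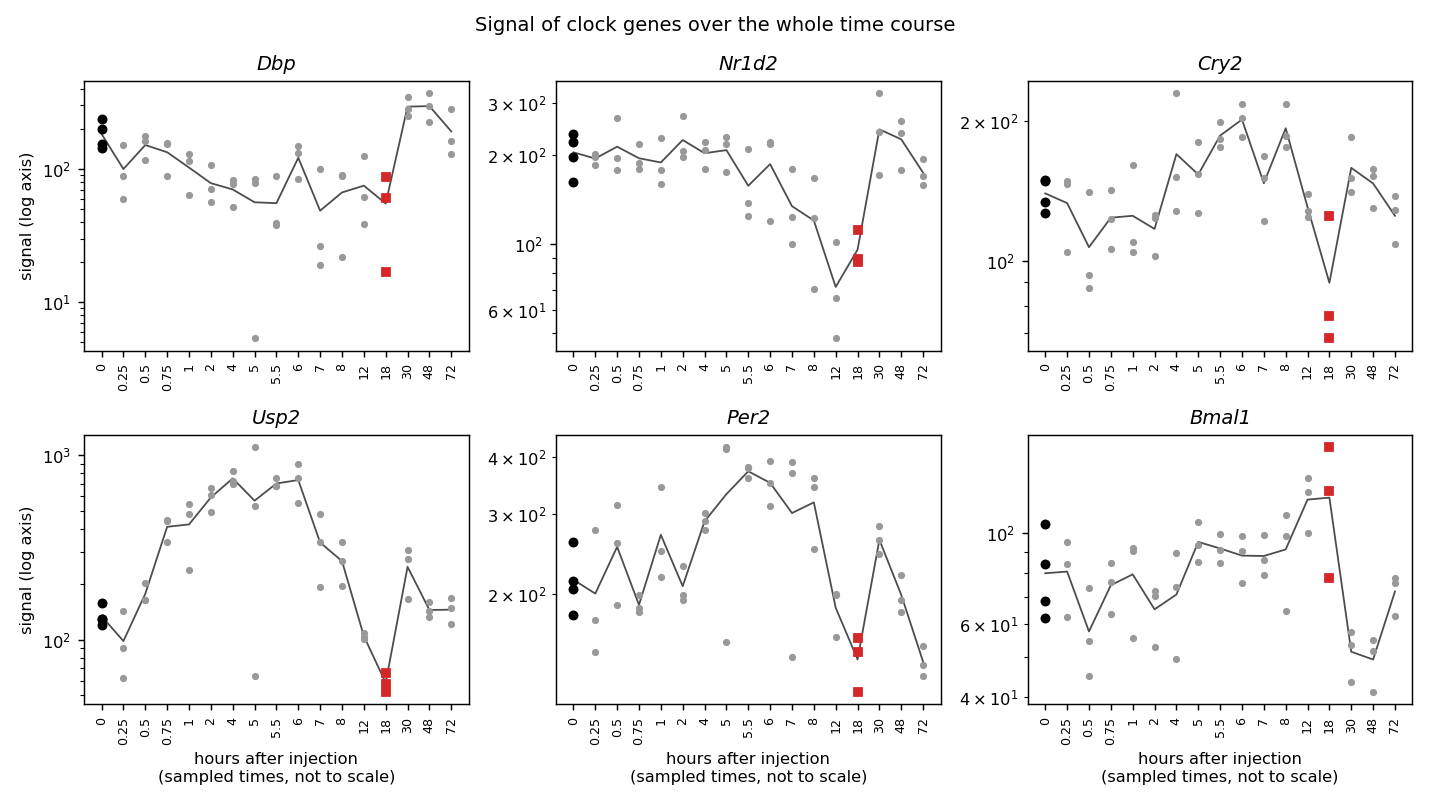
Signal of 6 clock genes at every sampled time on a log axis, each point a library, black at 0 h and red at 18 h, with the line through the means; times are evenly spaced and not to scale. The 18 h libraries of Dbp, Nr1d2, Cry2, Usp2 and Per2 lie below all untreated ones, and the means of these genes at 30 h are at or above the untreated mean; for Bmal1, 2 of the 3 libraries at 18 h lie above them. Nr1d2 is shown on its dimmer tested probe set.

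No gene of the list known to be induced by glucocorticoids passed. Of the 23 measured members the largest point estimate was that of Slc25a25, a mitochondrial ATP-magnesium carrier, at 1.36 ± 0.60 (adjusted p = 0.999), and the list's median difference was 0.19. Fkbp5, a cochaperone of the receptor and a sensitive target, had signals of 46.2, 61.3 and 84.0 at 18 h and 49.0, 59.8, 69.3 and 39.5 at 0 h (difference 0.19 ± 0.22, interval -0.26 to 0.65), after 658 ± 38.9 at 4 h. Tsc22d3, which encodes the leucine zipper GILZ, had 220.4, 186 and 156 against 297, 318, 205 and 347, a difference of -0.60 ± 0.20 (adjusted p = 0.435). Nfkbia, an inhibitor of NF-kappaB, had 133, 91.0 and 81.6 against 35.7, 64.5, 31.7 and 70.1 (difference 0.95 ± 0.49, adjusted p = 0.999).

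Sgk1, the kinase that raises sodium uptake in the distal nephron, was the member with the smallest adjusted p. Its signals were 872, 827 and 989 at 18 h and 473, 429, 403 and 720.5 at 0 h, where replicate 4 was highest (difference 0.85 ± 0.22, adjusted p = 0.127), and it passed against 48 and 72 h (0.89 ± 0.21, adjusted p = 0.0316, but 0.263 without 18 h replicate 3 and 0.119 without 18 h replicate 2). The receptor genes themselves did not pass: Nr3c1 had 162, 151 and 169 against 210.5, 195, 222 and 204 without overlap (difference -0.36 ± 0.14, adjusted p = 0.898), and Nr3c2, the mineralocorticoid receptor gene, differed by -0.15 ± 0.24 (adjusted p = 0.999).

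The other lists held no call. In all, 41 lists were read (27 of pathways and 14 of cell types), and 38 had no member past the threshold against 0 h; the exceptions were the conjugation enzymes, amino acid catabolism and, through Apoh, the hepatocyte markers. Of these 38 lists, the 33 with at least 4 measured genes had median differences between -0.31 (the clock) and 0.2 (acute phase and tubular injury). Gluconeogenesis and ammoniagenesis had a median of 0.11, and Pck1, its rate-limiting enzyme, was at 3647 to 4120.2 against 2873 to 3510.3 (difference 0.24 ± 0.20, interval -0.17 to 0.65). Fatty acid oxidation had a median of 0.17 over 21 genes, oxidative phosphorylation 0.019 over 71 and ribosomal proteins 0.069 over 39. Sodium and potassium handling had -0.058 over 17 genes and extracellular matrix 0.066 over 30.

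Single list members that did not pass are given as values, picked after the values had been seen. RT1-Da, a class II antigen presentation gene, had 932, 873 and 1186 against 1469, 1571, 1533 and 1567 (difference -0.63 ± 0.15, adjusted p = 0.0572). Lyz2, a lysozyme of macrophages, had 1132, 1342 and 1875 against 801, 1005, 906 and 960.1 (difference 0.63 ± 0.16, adjusted p = 0.109). Slc1a1, the glutamate transporter of the proximal tubule, had 388, 339 and 359 against 541, 541, 542 and 452 (difference -0.51 ± 0.14, adjusted p = 0.162), and Cubn, an endocytic receptor there, 2207, 2100.4 and 2198 against 1419, 1541, 1518 and 1437 (difference 0.55 ± 0.17, adjusted p = 0.395). In each of these 4 genes the groups did not overlap, as for 3.35% (above) and 3.91% (below) of all probe sets tested. Lcn2 and Fga, genes of injury and the acute phase, overlapped between the groups, at 79.5 to 149.8 against 24.2 to 80.5 and 34.1 to 100.1 against 11.4 to 68.5. Of the 14 measured genes in the acute phase and tubular injury list, 3 lay wholly above 0 h and 0 below. None was called (limma, smallest adjusted p 0.247).

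**Figure D5:**
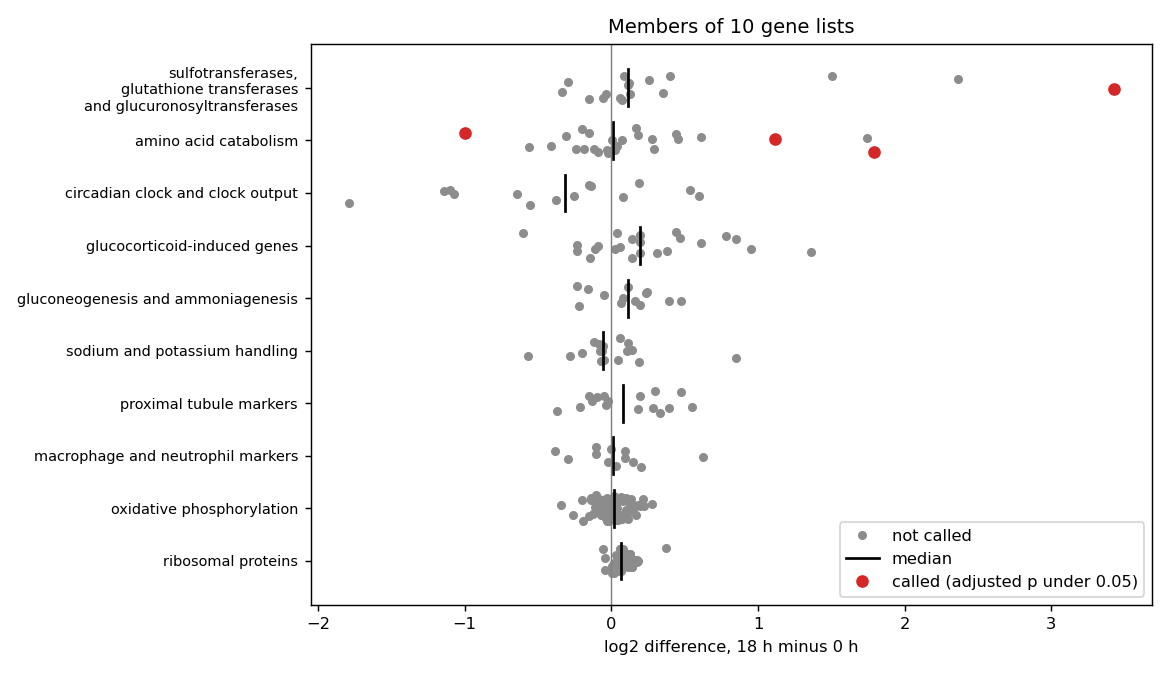
Log2 difference, 18 h minus 0 h, of every measured member of 10 gene lists, one point per gene, red where called, with a black bar at each list's median. Red points are seen in 2 lists, Sult1a1 in the conjugation enzymes and Bhmt, Ahcy and Kmo in amino acid catabolism, and every median lies between -0.31 and 0.19.

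Markers of kidney cell types were present at both times. The summed signal of 16 proximal tubule markers was 40107 to 46464 at 18 h and 38528 to 43816 at 0 h, and that of 9 markers of the loop of Henle and distal tubule 6474 to 7173 and 6151 to 7699. In these bulk samples fewer cells of a type and less RNA per cell cannot be told apart. Macrophage and neutrophil markers summed to 2228 to 2986 at 18 h and 1817 to 2247 at 0 h. Without Lyz2 the sums were 1096 to 1149 and 911 to 1286 and overlapped, and the median difference of the 12 measured members was 0.014, with Tyrobp, S100a9, Ptprc and Aif1 among the negative ones. Erythroid markers were lower in every 18 h library, 777 to 1159 against 1197 to 1423, with Hbb, a beta-globin gene whose near-identical copies may share this probe set, at 889.8, 527 and 709 against 1144, 1127, 928 and 1046 (difference -0.61 ± 0.50, adjusted p = 0.999). Adrenal markers were dim, with Star at 8.05 to 15.8 against 8.5 to 36.1 and Cyp11b1 at 10.7 to 37.3 against 16.3 to 19.3, while Cyp11a1, the first enzyme of steroid synthesis, had 148, 162 and 144 against 96.1, 82.5, 96.8 and 111 (difference 0.62 ± 0.17, adjusted p = 0.216). The part of these cell types in any difference was not tested.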

How the data were processed

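Kidney RNA was measured on Affymetrix arrays of the main type. The authors deposited linear intensities scaled per array, as the files show (mean without the lowest and highest 2% of values, 150.03 to 150.04 on all 53 arrays). No source used here names the algorithm behind them. Arrays have no read depth, so their number limits the precision. The second array type holds no 18 h array and was not used. Values were taken as log2(intensity + 7.63), the 10th percentile of the table. Arrays a and b of 5 h replicate 1 were averaged (52 libraries). After removal of 57 control probe sets, those at or above the 40th percentile of mean level were tested (9520). All 17 times entered 1 fit of limma 3.58.1 in R 4.3.3 with a mean-variance trend, two-sided, with 35 residual degrees of freedom. The fit was checked on simulated data. Probe sets were named by the array annotation, brought up to date with RefSeq names (12748 by identifier, 2 by accession, 33 as given, 312 with several, 2771 with none listed). Promoters are from RefSeq (GRCr8). Genes were named where called, with 1 symbol and no overlap of the groups, up to 12 each way, besides members of the lists, each read on its brightest probe set. Comparison, members, lists and tests were chosen with earlier results of these data known. No columns were identical.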

Additional observations from a re-analysis of the deposited data

Results flagged for a closer look

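In 5 of 85 genes and probe sets checked, 1 of the 4 libraries at 0 h lay far from the other 3, by a test that chance trips in about 5% of groups. Per1 had a signal of 44.7 in 0 h replicate 2, above the rest. The lowest library was 0 h replicate 3 for Nfil3 (34.6) and Cyp4a8 (1359.5), 0 h replicate 1 for Csnk1e (14.7) and 0 h replicate 4 for Slc1a1 (452). None of these genes was called against 0 h.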

How the results depend on the processing

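Of 268 single-gene results under other settings, 176 kept direction and call, 92 kept the direction without the call and 0 reversed. Probe sets higher than at 0 h numbered 12, and lower 6. Array weights gave 26 and 24, no filter on dim probe sets gave 8 and 2, and leaving out the arrays lettered b or c in the labels gave 10 and 2. Without 1 library at a time they ranged from 3 to 9 and from 1 to 6; of the higher ones, 3 were called when 18 h replicate 1 was omitted, 5 for 18 h replicate 3 and 7 for 18 h replicate 2 and for 0 h replicate 3. Of the lower ones, 1 was called for 18 h replicate 2, 2 for 0 h replicates 2 and 3, and 3 for 0 h replicates 1 and 4. Against 48 and 72 h (18 and 15) the counts were 27 and 39 with array weights, 22 and 25 with only the compared groups, and 7 and 4 without the lettered arrays; without 1 library they ranged from 6 to 17 and from 4 to 17. Both lowest values were without 18 h replicate 3. Against 12 h the count was 0 in every setting run. The causes were not tested.

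Replicate numbers were not treated as pairs in the main fit. The deviations of same-numbered libraries from their group means correlated at -0.037, -0.026 and 0.24 for numbers 1, 2 and 3. Libraries of different numbers were not correlated in this way, so these values cannot settle whether the numbers pair the libraries. The replicate block gave 8 higher and 3 lower against 0 h, and 19 and 20 against 48 and 72 h.

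With 3 and 4 libraries a group, small or variable differences have wide intervals, and arrays give no count of molecules; a probe set near background has a compressed difference, since 7.63 was added before the logarithm.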
